A study of Mus musculus with 7 samples.

Results

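The genes described here encode the receptors, signalling adaptors and cytotoxic granule proteins that natural killer (NK) cells use and that many innate-like T cells share. There are 10 of them, chosen by name, among 18193 genes with a probe set on the array: the receptors Klrb1c, Klrb1f, Klrd1 and Klrk1, the adaptors Fcer1g and Tyrobp, and the granule genes Nkg7, Gzma, Gzmb and Prf1. Of these, 9 had a probe set that names them alone, 11 such probe sets in all, and Klrb1c had none, so no value is given for it. Expression was measured on 7 single-colour Affymetrix arrays of thymic T cells, sorted from mice aged 4 to 6 weeks and kept on a C57BL/6J background. The groups were stage 1 natural killer T (NKT) cells of Valpha14 T cell receptor transgenic mice that also carried the Luxoid mutation of Zbtb16 and are described as PLZF-deficient (n = 3, called Luxoid NKT), stage 1 NKT cells of Valpha14 transgenic mice without it (n = 2), and CD4 single-positive thymocytes of wild-type mice (n = 2, called CD4SP). The transgene was thus present in both NKT groups and absent from CD4SP. Each sample was RNA of pooled mice, and NKT cells were gated as CD1d tetramer-binding, CD24 low, CD44 negative and NK1.1 negative. NK1.1 is the protein of Klrb1c, so the gate bears on that gene. The CD4SP samples carry 1 label that repeats the NKT gate, and they were grouped by the other labels, which call them CD4SP.

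NK receptors of the C-type lectin family sit in a gene complex that holds Klrb1c, Klrb1f, Klrd1 and Klrk1 together. Most activating NK receptors cannot signal alone and pair with small adaptors, Fcer1g (the Fc receptor gamma chain) or Tyrobp (DAP12), whose cytoplasmic tyrosine motifs recruit the kinases Syk and Zap70. Target cells are then killed by secreted granules, in which perforin opens the way for granzymes. NKT cells are known for acquiring NK receptors late in their maturation, after stage 1.

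The members' promoters are shown for 4 genes whose values differ in kind: Nkg7, high in both NKT groups, Gzmb and Fcer1g, highest in Luxoid NKT, and Klrb1f, lowest there. Each line gives the 250 bases before the RefSeq start site (GRCm38.p6), read along the gene, with matches to TGTGGT (a RUNX core) or GGTGTG (a T-box core) on either strand in capitals.
Nkg7, chr7:43436888-43437137, + strand: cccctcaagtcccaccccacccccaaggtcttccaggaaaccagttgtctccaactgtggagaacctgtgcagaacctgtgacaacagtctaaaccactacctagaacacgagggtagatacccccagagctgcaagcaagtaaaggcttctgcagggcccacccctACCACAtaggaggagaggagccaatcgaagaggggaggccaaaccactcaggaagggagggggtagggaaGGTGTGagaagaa
Gzmb, chr14:56262335-56262584, - strand: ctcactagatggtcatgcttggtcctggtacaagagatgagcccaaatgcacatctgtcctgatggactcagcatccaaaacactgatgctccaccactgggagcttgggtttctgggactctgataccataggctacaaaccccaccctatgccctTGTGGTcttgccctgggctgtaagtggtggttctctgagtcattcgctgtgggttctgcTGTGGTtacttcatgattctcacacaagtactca
Fcer1g, chr1:171234350-171234599, - strand: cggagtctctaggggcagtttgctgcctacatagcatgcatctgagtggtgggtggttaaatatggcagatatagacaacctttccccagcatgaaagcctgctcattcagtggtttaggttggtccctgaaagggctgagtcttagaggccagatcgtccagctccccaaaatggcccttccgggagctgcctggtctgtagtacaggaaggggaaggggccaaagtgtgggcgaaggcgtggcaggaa
Klrb1f, chr6:129045651-129045900, + strand: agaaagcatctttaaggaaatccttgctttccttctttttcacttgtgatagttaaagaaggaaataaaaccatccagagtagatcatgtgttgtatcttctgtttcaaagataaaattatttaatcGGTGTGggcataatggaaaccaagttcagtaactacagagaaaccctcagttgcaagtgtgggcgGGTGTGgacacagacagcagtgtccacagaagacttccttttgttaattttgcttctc

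Of the 10 members, 8 had a promoter in the RefSeq table. The RUNX letters stood in 6 of these 8 windows, against 14.2% of the 27025 windows of the same length in the table, and the T-box letters in 2 of 8, against 16.2%. No match overlapped another in these 8 windows. In Nkg7 the RUNX letters began at position -83 from the start site and the T-box letters at -13. Gzmb held the RUNX letters at -93 and -34, and Klrb1f the T-box letters at -123 and -58. Neither string was found in the Fcer1g window. Klrb1c, Klrk1, Gzma and Prf1 held the RUNX letters once each. These are matches of letters and not measured binding sites.

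Intensities are the deposited array values on a linear scale, and a level is the geometric mean of a group's arrays. Array medians were 79.6 to 83.7. Values under 82.0, the median of all values in the table, are called near background, and a gene was tested if it reached 82.0 in 2 or more arrays. By that filter 10874 genes were tested, including 8 of the 10 members. As a reading of background, 24 genes of liver, eye, muscle and other tissues had a median intensity of 53.0, but 10 of them reached 82.0 in some array and 5 in all 7. These 5 were Mbp (729 to 1183), Pomc (157 to 274), Apoa1 (106 to 149), Apoa2 (102 to 115) and Ins2 (91.6 to 127), so a value a little above 82.0 does not by itself show expression. Differences are on the log2 scale ± SE from limma with its Benjamini-Hochberg adjusted p over all genes tested, and an adjusted p under 0.05 is called a rise or a fall. Where every array of the dimmer group was near background, a fold is a lower bound against 82.0. Zbtb16, the mutated gene, read 1857, 2774 and 2645 in Luxoid NKT and 2751 and 3488 in stage 1 NKT, against 87.3 and 61.8 in CD4SP, so its transcript does not tell the NKT groups apart. The T cell receptor chain gene Cd3e read 4352, 5097 and 4671 in Luxoid NKT and 4035 and 4660 in stage 1 NKT, against 5265 and 5837 in CD4SP. The Y-linked gene Kdm5d read 6.49 to 11.7 in each group's array 1 and 758 to 2331 in all others, so the sex of the mice varied inside each group. Xist, expressed in females, read 6547, 36.1 and 5426 in Luxoid NKT and 5644 and 3888 in stage 1 NKT, against 6723 and 29.0 in CD4SP. Luxoid array 3 and stage 1 NKT array 2 thus read high for both genes, and the arrays numbered 2 were not matched for sex. In bulk samples, fewer cells of a type and less RNA per cell cannot be told apart.

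**Figure D1:**
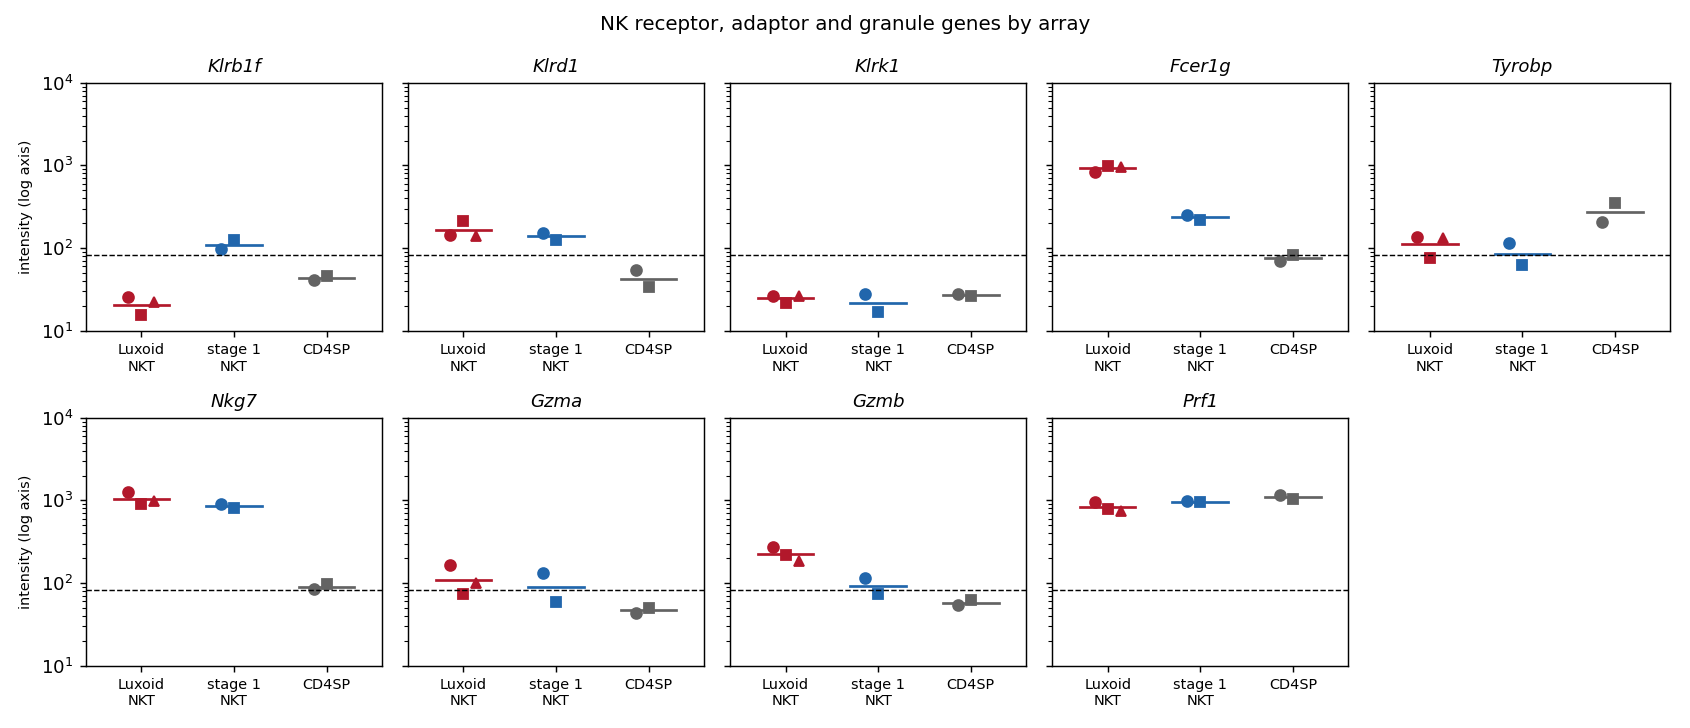
Intensity on a log axis of the 9 measured genes in each array, with circles, squares and triangles for arrays numbered 1, 2 and 3, short lines for geometric means and a dashed line at 82.0. Fcer1g steps down through Luxoid NKT, stage 1 NKT and CD4SP, Nkg7 is high in both NKT groups, Tyrobp is highest in CD4SP, and Klrk1 is below the dashed line in all 7 arrays.

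Among the receptors, Klrb1f was brightest in stage 1 NKT, Klrd1 separated both NKT groups from CD4SP, and Klrk1 was near background throughout. Klrb1f, a receptor of the NKR-P1 family, read 25.5, 15.3 and 22.3 in Luxoid NKT and 97.5 and 124.6 in stage 1 NKT, against 41.4 and 45.3 in CD4SP. All Luxoid and CD4SP arrays were near background and both stage 1 NKT arrays were above it, with no overlap between any groups. Klrb1f fell at least 1.34-fold in Luxoid NKT relative to stage 1 NKT (fitted difference -2.42 ± 0.22, adjusted p = 0.00124). It passed the filter through stage 1 NKT alone, so the bound, and not the fitted difference, gives the size. In stage 1 NKT it was higher than in CD4SP by the same bound of 1.34-fold (1.35 ± 0.25, adjusted p = 0.00801), a call lost without stage 1 NKT array 2 (adjusted p = 0.0691), CD4SP array 1 (0.0614) or CD4SP array 2 (0.0504). Luxoid NKT was also below CD4SP (-1.07 ± 0.22, adjusted p = 0.0128, and 0.0693 or 0.105 without CD4SP array 1 or 2), with every array of both groups near background. A second Klrb1f probe set read 13.3 to 22.5 in Luxoid NKT and 23.1 and 35.5 in stage 1 NKT, against 27.4 and 26.0 in CD4SP. It was near background in all 7 arrays and did not pass over all probe sets (Luxoid minus stage 1 NKT -0.63 ± 0.27, adjusted p = 0.639). Klrb1 genes resemble each other, so probes of one may bind RNA of another, and Klrb1f values stay uncertain for that reason.

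Klrd1 encodes CD94, the shared partner chain of the NKG2 receptors. It read 145, 213 and 142 in Luxoid NKT and 154 and 126 in stage 1 NKT, against 54.6 and 33.4 in CD4SP. The NKT groups overlapped, and both lay above CD4SP, whose arrays were near background. The rise over CD4SP was at least 1.99-fold in Luxoid NKT (1.94 ± 0.25, adjusted p = 0.00126) and at least 1.70-fold in stage 1 NKT (1.70 ± 0.28, adjusted p = 0.00491, and 0.0536 without stage 1 NKT array 1). Luxoid minus stage 1 NKT was 0.23 ± 0.25 (adjusted p = 0.813). Klrk1 encodes NKG2D, an activating receptor for stress ligands. It read 21.9 to 26.3 in Luxoid NKT, 28.1 and 16.8 in stage 1 NKT, and 28.1 and 26.6 in CD4SP. It lay near background in every array and was not tested.

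Against CD4SP the adaptors went opposite ways, Fcer1g up and Tyrobp down in both NKT groups, while Luxoid minus stage 1 NKT was positive for both and called for Fcer1g alone. Fcer1g read 843, 982 and 951 in Luxoid NKT and 253 and 218 in stage 1 NKT, against 68.9 and 82.5 in CD4SP. The 3 groups did not overlap, and each step was larger than the spread within groups. Fcer1g rose 3.94-fold in Luxoid NKT over stage 1 NKT (1.98 ± 0.15, adjusted p = 0.000554), the 21st largest of 98 rises there. Over CD4SP it rose 12.2-fold in Luxoid NKT (3.61 ± 0.15, adjusted p = 3.27e-06) and 3.11-fold in stage 1 NKT (1.64 ± 0.17, adjusted p = 0.00039), with 1 of the 2 CD4SP arrays near background, so both folds depend on dim values. Among the arrays numbered 1, all with Kdm5d at 11.7 or less, Luxoid minus stage 1 NKT was 1.74, and among those numbered 2 it was 2.17. The second is not a difference at like sex, since Xist read 36.1 in Luxoid array 2 and 3888 in stage 1 NKT array 2. All 3 calls of Fcer1g held in each of the 17 alternative settings, with Luxoid minus stage 1 NKT between 1.87 and 2.09.

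Tyrobp read 135, 76.3 and 133 in Luxoid NKT and 116 and 61.9 in stage 1 NKT, against 208 and 350 in CD4SP. The NKT groups overlapped, each with 1 array near background, and both lay below CD4SP. The difference from CD4SP was -1.28 ± 0.35 in Luxoid NKT (adjusted p = 0.0403) and -1.67 ± 0.39 in stage 1 NKT (adjusted p = 0.0226). The Luxoid call was lost without Luxoid array 2 (0.0689) or 3 (0.0635) or CD4SP array 1 (0.0640) or 2 (0.290), without the intensity filter (0.0581) and with Kdm5d as a covariate, chosen after the data were seen (0.0537). For stage 1 NKT, leaving out its array 2 (0.142) or CD4SP array 2 (0.160) ended the call. Luxoid minus stage 1 NKT was 0.39 ± 0.35 (adjusted p = 0.764). CD4SP array 2 was also the brightest for the myeloid and dendritic markers H2-Aa, Siglech and Mpeg1. The same held for Itgam, Adgre1 and Spi1, which were near background in all arrays. For Cd68, Csf1r, Lyz2, Itgax, Fcgr1, Cd14 and Flt3 of the same list another array was the brightest. Summed over the 13 markers of that list with a probe set, intensities were 647 to 659 in Luxoid NKT and 625 to 717 in stage 1 NKT, against 808 to 938 in CD4SP. In CD4SP 4 of the 13 reached 82.0 in each array, against 2 in each NKT array. H2-Aa read 56.6, 68.4 and 68.5 in Luxoid NKT and 71.0 and 63.9 in stage 1 NKT, against 93.6 and 125.5 in CD4SP, and Siglech read 90.7 to 99.4 in Luxoid NKT and 89.5 and 114.6 in stage 1 NKT, against 110.5 and 180.4 in CD4SP. Cd68 read 86.3 to 114 in Luxoid NKT and 117 and 142 in stage 1 NKT, against 122 and 140 in CD4SP. Lyz2, a defining macrophage gene, was near background in all arrays (43.7 to 63.1). The part of such cells in the Tyrobp values was not tested.

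Of the granule genes, Nkg7 marked both NKT groups, Gzmb was highest in Luxoid NKT, and Prf1 was bright in all groups by its brighter probe set only. Nkg7, a membrane protein of cytotoxic granules, read 1256, 908 and 991 in Luxoid NKT and 904 and 805 in stage 1 NKT, against 84.2 and 96.6 in CD4SP. CD4SP arrays were just above 82.0, and the NKT groups lay next to each other with no overlap. Over CD4SP, Nkg7 rose 11.5-fold in Luxoid NKT (3.53 ± 0.17, adjusted p = 7.76e-06) and 9.46-fold in stage 1 NKT (3.24 ± 0.19, adjusted p = 2.74e-05), the 43rd largest of 1177 rises there. Between the NKT groups the difference of 0.29 ± 0.17 did not pass (adjusted p = 0.595).

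Gzmb encodes granzyme B, a protease that triggers apoptosis in target cells. It read 277, 216 and 184 in Luxoid NKT and 115 and 73.1 in stage 1 NKT, against 53.5 and 61.9 in CD4SP. The 3 groups did not overlap, although 1 stage 1 NKT array and both CD4SP arrays were near background. Relative to CD4SP it rose at least 2.72-fold in Luxoid NKT (1.95 ± 0.23, adjusted p = 0.000788), while stage 1 NKT minus CD4SP was 0.67 ± 0.26 (adjusted p = 0.123). Luxoid minus stage 1 NKT was 1.28 ± 0.23 (2.43-fold, adjusted p = 0.0358). Leaving out any 1 of the 7 arrays ended that call (adjusted p = 0.0564 to 0.352), as did fitting the 2 NKT groups alone (0.0866). Gzma, which encodes granzyme A, read 168, 74.6 and 99.9 in Luxoid NKT and 131 and 59.7 in stage 1 NKT, against 43.7 and 50.2 in CD4SP. Both NKT groups lay above CD4SP and overlapped each other, with the array numbered 2 near background in each. Its differences did not pass: 0.28 ± 0.39 for Luxoid minus stage 1 NKT (adjusted p = 0.856), 0.92 ± 0.42 for stage 1 NKT minus CD4SP (0.191) and 1.20 ± 0.39 for Luxoid NKT minus CD4SP (0.0687). The last passed after another quantile normalization (0.0462), without Luxoid array 2 (0.0294) and with the Kdm5d covariate (0.0275).

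Prf1 encodes perforin. Its brighter probe set read 949, 798 and 738 in Luxoid NKT and 975 and 946 in stage 1 NKT, against 1157 and 1039 in CD4SP. No comparison passed, with -0.22 ± 0.15 for Luxoid minus stage 1 NKT (adjusted p = 0.651), -0.19 ± 0.17 for stage 1 NKT minus CD4SP (0.487) and -0.41 ± 0.15 for Luxoid NKT minus CD4SP (0.106). The dimmer probe set of Prf1 pointed the other way in Luxoid NKT. It read 158, 104 and 259 in Luxoid NKT and 92.7 and 78.1 in stage 1 NKT, against 89.4 and 82.0 in CD4SP (Luxoid minus stage 1 NKT 0.93 ± 0.33, adjusted p = 0.517 over all probe sets). In stage 1 NKT and CD4SP the dimmer probe set thus read close to 82.0. Both the level of Prf1 and its direction in Luxoid NKT therefore depend on the probe set.

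**Figure D2:**
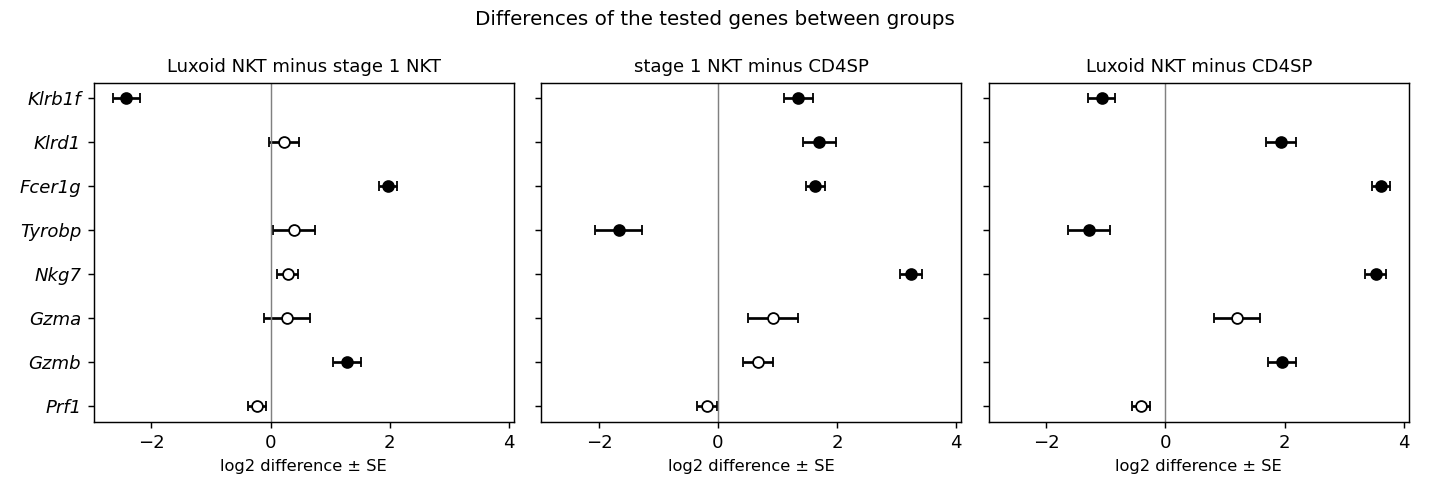
Log2 differences ± SE from limma for the 8 tested genes in the 3 comparisons, with filled points for an adjusted p under 0.05. Fcer1g and Gzmb lie to the right and Klrb1f to the left for Luxoid minus stage 1 NKT, and Tyrobp lies to the left in both comparisons with CD4SP.

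For Luxoid against stage 1 NKT, the comparison that bears on PLZF, 2 of the 8 tested members rose and 1 fell, where 0.901% of all genes tested rose and 0.653% fell (1.55% in either direction). Arrays of these groups did not overlap for 10.1% of tested genes in the upward and 16.6% in the downward direction. For stage 1 NKT against CD4SP 4 members rose and 1 fell, beside 10.8% and 4.08% of all genes (14.9% in either direction, with no overlap of arrays for 36.6% upward and 23.6% downward). For Luxoid NKT against CD4SP 4 rose and 2 fell, beside 11.3% and 5.51% of all genes (16.8% in either direction, with no overlap for 25.4% upward and 20.6% downward). The 2 falls were Tyrobp and Klrb1f, and every Klrb1f array of both groups was near background. These comparisons share arrays, and members that passed the filter through 1 bright group, such as Klrb1f, had to differ, so the counts describe the list and support nothing beyond it. By level, the order Luxoid NKT, stage 1 NKT, CD4SP held for Fcer1g with every step called. Klrd1 and Nkg7 had the same order with no called difference between the NKT groups, Gzmb with none between stage 1 NKT and CD4SP, and Gzma with no step called.

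Patterns over the 7 arrays are given as descriptions, since arrays share their groups. Between members, log2 values of Fcer1g and Gzmb had r = 0.957 and those of Klrd1 and Nkg7 had r = 0.931, while Klrd1 and Tyrobp had r = -0.857. Among all tested genes the closest to Fcer1g were Adk (r = 0.992), St3gal5 (0.990) and Fgl2 (0.989). Fgl2 read 958, 1178 and 1278 in Luxoid NKT and 112 and 66.9 in stage 1 NKT, against 24.7 and 24.9 in CD4SP. Closest to Nkg7 were Sccpdh (r = 0.998), Pdcd1 (0.997), which encodes the inhibitory receptor PD-1, and Cyp20a1 (0.996). For Klrb1f they were Iqgap2 (0.972), Gsto1 (0.971) and Nisch (0.966), and for Klrd1 Mapre2 (0.998), Tars (0.996) and Ctsz (0.992). For Tyrobp they were Sdcbp2 (0.969), Gpr146 (0.966) and Vav2 (0.959), and for Gzma Tfam (0.977), Mief1 (0.972) and Dnm1l (0.969). For Gzmb they were Mpp4 (0.990), Ano10 (0.982) and Otud7b (0.980), and for Prf1 Rnf213 (0.989), Fitm2 (0.983) and Tecpr1 (0.983).

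Other NK and cytotoxic receptors were read from a list of 35 symbols, of which 26 had a probe set and 9 were tested. Beside this list and those below, 0.901% of all tested genes rose and 0.653% fell for Luxoid against stage 1 NKT. The shares were 10.8% and 4.08% for stage 1 NKT against CD4SP, and 11.3% and 5.51% for Luxoid NKT against CD4SP. In Luxoid NKT 2 of the 9 rose over stage 1 NKT and 0 fell by limma's adjusted p, with 5 higher and 1 lower at an unadjusted p under 0.05 (median difference 0.60, against -0.03 over all genes tested). Klrb1a, another NKR-P1 receptor, read 743, 987 and 700 in Luxoid NKT and 370 and 257 in stage 1 NKT, against 38.9 and 24.9 in CD4SP. It rose in Luxoid over stage 1 NKT (1.38 ± 0.25, adjusted p = 0.0347), opposite in direction to Klrb1f. That call was lost without any 1 of the 5 NKT arrays (0.0604 to 0.360). The other was Cd2, an adhesion receptor of T and NK cells (0.69 ± 0.13, adjusted p = 0.0484, lost when any 1 array was left out, 0.0818 to 0.309). Relative to CD4SP 4 rose and 2 fell in stage 1 NKT (median 0.13, against 0.06 over all genes). The rises were Klrb1a (at least 3.76-fold, 3.31 ± 0.27), Cd160 (2.96-fold, 1.57 ± 0.20), Cd226 (1.73-fold, adjusted p = 0.0449) and Slamf6 (1.69-fold, adjusted p = 0.0111), and the falls were Cd96 (-1.15 ± 0.20) and Cd2 (-0.83 ± 0.15). Leaving out 1 array ended the call of Cd226 for 6 of the 7 arrays (0.0513 to 0.273), of Slamf6 for each stage 1 NKT or CD4SP array (0.0568 to 0.0798), and of Cd96 (0.0568 and 0.0550) and Cd2 (0.0633 and 0.0583) for stage 1 NKT array 1 and CD4SP array 2. Cd160 read 520, 626 and 677 in Luxoid NKT and 414 and 321 in stage 1 NKT, against 134 and 113 in CD4SP. In Luxoid NKT against CD4SP 5 rose and 1 fell, led by Klrb1a (at least 9.76-fold, 4.69 ± 0.25, adjusted p = 1.18e-05) and Cd160 (4.91-fold, 2.30 ± 0.18, adjusted p = 7.06e-05), with Cd96 the fall (-1.90 ± 0.18). The other rises were Slamf6 (1.97-fold, adjusted p = 0.00165), Cd226 (1.77-fold, adjusted p = 0.0251) and Fcgr3, an Fc receptor that pairs with Fcer1g (1.66-fold, adjusted p = 0.0143). The Cd226 call was lost without Luxoid array 3 (0.0699) or CD4SP array 1 (0.183), and that of Fcgr3 without CD4SP array 1 (0.0535) or 2 (0.119). The NKG2 chains that pair with CD94, Klrc1 and Klrc2, were near background in all arrays (9.41 to 14.9), as were Ncr1 (13.4 to 17.6) and Klra7 (32.2 to 37.4).

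Of 20 tested signalling partners none passed for Luxoid against stage 1 NKT by limma's adjusted p, and 2 were higher and 0 lower at an unadjusted p under 0.05 (median -0.01, against -0.03 over all genes). Hcst, the adaptor of NKG2D and the neighbour of Tyrobp on its chromosome, read 599, 746 and 576 in Luxoid NKT and 629 and 699 in stage 1 NKT, against 547 and 838 in CD4SP. The groups overlapped. Zap70 read 1496 to 1631 in Luxoid NKT and 1469 and 1434 in stage 1 NKT, against 1533 and 1192 in CD4SP, and Syk was near background in all arrays (58.6 to 81.7). In stage 1 NKT against CD4SP 1 rose, Sh2d1a, which encodes SAP (0.93 ± 0.23, adjusted p = 0.0308), and 1 fell, Vav1 (-0.57 ± 0.15, adjusted p = 0.0367). In Luxoid NKT against CD4SP 2 rose, Lat2 (2.84-fold, adjusted p = 0.00182) and Sh2d1a (0.88 ± 0.21, adjusted p = 0.025), and 1 fell, Lat (-0.51 ± 0.13, adjusted p = 0.0335). The call of Lat2 held when any 1 array was left out. That of Lat was lost for each array (0.0522 to 0.183), that of Vav1 for each stage 1 NKT or CD4SP array (0.111 to 0.165), and those of Sh2d1a without either CD4SP array or array 1 of the NKT group compared (0.0559 to 0.166 for Luxoid NKT, 0.0997 to 0.205 for stage 1 NKT). Lat2 is a linker used by Fc receptors, and it read 267, 368 and 286 in Luxoid NKT and 193 and 181 in stage 1 NKT, against 86.7 and 132 in CD4SP.

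Genes that package and release granules were read from a list of 28, of which 22 were tested. Against stage 1 NKT 1 rose in Luxoid NKT and none fell by limma's adjusted p, with 4 higher and 1 lower at an unadjusted p under 0.05 (median 0.04, against -0.03 over all genes). The rise was that of Gzmc, a granzyme gene next to Gzmb, which read 86.7, 81.5 and 103 in Luxoid NKT and 36.7 and 48.7 in stage 1 NKT, against 37.1 and 35.1 in CD4SP (1.09 ± 0.17, at least 1.10-fold, adjusted p = 0.0182). Gzmc passed the filter through Luxoid NKT alone, so the bound, and not the fitted difference, gives the size. Its call was lost without either stage 1 NKT array (0.185 and 0.0565) or Luxoid array 3 (0.0618), and granzyme genes are alike enough that their probes may share signal. In stage 1 NKT against CD4SP 7 rose and 1 fell (median 0.33, against 0.06 over all genes), and in Luxoid NKT against CD4SP 7 rose and 0 fell by limma's adjusted p, with 10 higher and 1 lower at an unadjusted p under 0.05. Cst7, which encodes cystatin F, an inhibitor of granule cathepsins, read 899, 784 and 807 in Luxoid NKT and 1125 and 995 in stage 1 NKT, against 67.3 and 110 in CD4SP. Over CD4SP it rose 9.64-fold in Luxoid NKT (3.27 ± 0.21) and 12.3-fold in stage 1 NKT (3.62 ± 0.23). Serpinb6b, a serpin, was higher than in CD4SP by 1.28 ± 0.15 in Luxoid NKT and 1.53 ± 0.16 in stage 1 NKT. Srgn, the proteoglycan that holds granule contents, read 4115, 3741 and 3634 in Luxoid NKT and 4503 and 4758 in stage 1 NKT, against 1840 and 2257 in CD4SP (0.91 ± 0.15 in Luxoid NKT and 1.18 ± 0.16 in stage 1 NKT over CD4SP, both called). Serpinb9, an inhibitor of granzyme B, read 223.5, 259 and 208 in Luxoid NKT and 286 and 371 in stage 1 NKT, against 154 and 213 in CD4SP. It rose in stage 1 NKT over CD4SP (0.85 ± 0.21, adjusted p = 0.0312), a call lost without either stage 1 NKT array (0.0641 and 0.171) or CD4SP array 1 (0.177), while Luxoid minus stage 1 NKT was -0.51 ± 0.19 (adjusted p = 0.359). The death ligand gene Tnfsf10 rose over CD4SP by 1.54 ± 0.18 in Luxoid NKT (adjusted p = 0.000693) and 0.77 ± 0.20 in stage 1 NKT (adjusted p = 0.0336). Ctsl fell in stage 1 NKT against CD4SP (-0.70 ± 0.18, adjusted p = 0.0324). Leaving out 1 array ended the stage 1 NKT calls of Tnfsf10 for 5 of the 7 arrays (0.0501 to 0.213) and of Ctsl for 4 (0.0557 to 0.188).

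**Figure D3:**
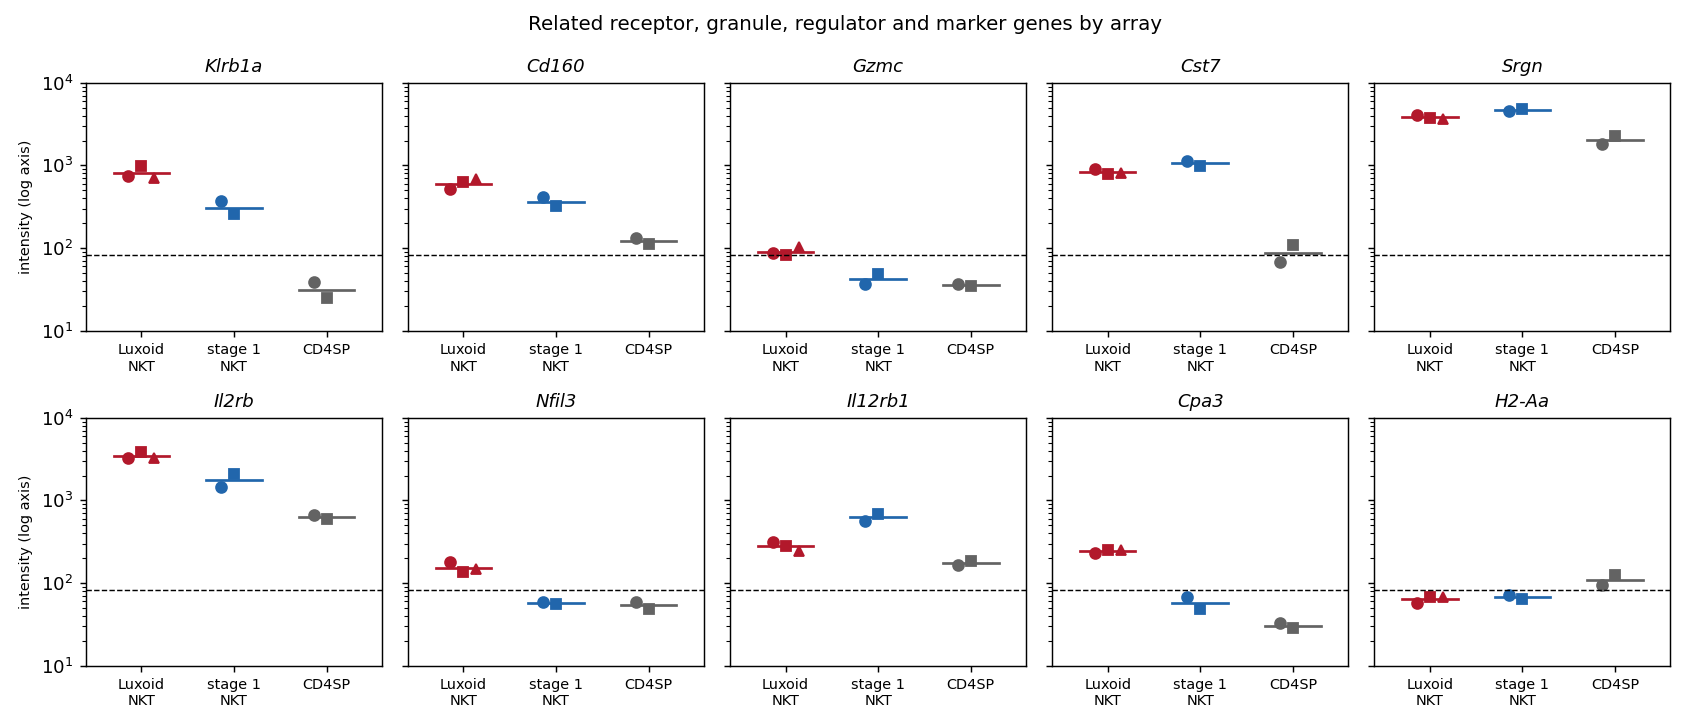
Intensity on a log axis of 10 related genes in each array, with circles, squares and triangles for arrays numbered 1, 2 and 3, short lines for geometric means and a dashed line at 82.0. Klrb1a, Gzmc, Il2rb, Nfil3 and Cpa3 are highest in Luxoid NKT, Il12rb1 is highest in stage 1 NKT, and H2-Aa is highest in CD4SP.

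Among 21 tested regulators of the NK and cytotoxic programme, 2 rose and 2 fell in Luxoid against stage 1 NKT (median 0.12, against -0.03 over all genes). Nfil3, a transcription factor needed for NK cell development, read 180, 136 and 150 in Luxoid NKT and 58.6 and 55.6 in stage 1 NKT, against 59.4 and 49.1 in CD4SP. It rose at least 1.88-fold over stage 1 NKT (1.43 ± 0.16, adjusted p = 0.00354, and 0.0685 without stage 1 NKT array 2). Nfil3 passed the filter through Luxoid NKT alone, so the bound, and not the fitted difference, gives the size. Il2rb, the receptor chain shared by interleukins 2 and 15, read 3285, 3812 and 3240 in Luxoid NKT and 1472 and 2095 in stage 1 NKT, against 675 and 593 in CD4SP (0.97 ± 0.18 over stage 1 NKT, adjusted p = 0.0389). The Il2rb call was lost when any 1 array was left out (0.0638 to 0.284), with the 2 groups fitted alone (0.0866) and with the Kdm5d covariate (0.0544). The falls were Il12rb1 (-1.17 ± 0.16, adjusted p = 0.0106) and Il18rap (-1.45 ± 0.22, adjusted p = 0.0148), chains of the interleukin 12 and interleukin 18 receptors, and both calls were lost without either stage 1 NKT array (Il12rb1 0.0597 and 0.170, Il18rap 0.172 and 0.0807). Il18rap read 76.1, 57.6 and 46.3 in Luxoid NKT, all near background, and 183 and 141 in stage 1 NKT. Its fall was at least 1.96-fold, and the bound, not the fitted difference, gives the size. In stage 1 NKT against CD4SP 9 rose and 2 fell (median 0.08, against 0.06 over all genes). In Luxoid NKT against CD4SP 9 rose and 2 fell (median -0.14, against 0.02 over all genes). In Luxoid NKT the largest of these rises were Tox2 (3.92 ± 0.32), Il2rb (2.44 ± 0.18), Id2 (2.28 ± 0.15) and Nfil3 (1.51 ± 0.16). In stage 1 NKT they were Tox2 (3.37 ± 0.35), Id2 (3.02 ± 0.17), Il18r1 (2.15 ± 0.29) and Il12rb1 (1.84 ± 0.18). The falls were Stat4 (-1.09 ± 0.24) and Bcl11b (-0.51 ± 0.13) in Luxoid NKT, and Stat4 (-1.62 ± 0.26) and Runx3 (-0.98 ± 0.17) in stage 1 NKT. The Luxoid call of Stat4 was lost without CD4SP array 1 (0.105) or 2 (0.0812), that of Bcl11b without any of 6 arrays (0.0558 to 0.184), and the stage 1 NKT call of Runx3 without stage 1 NKT array 1 (0.0589). Eomes, a T-box factor of NK cells, was near background in all arrays (32.2 to 43.2).

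Markers of other cells that use these genes were read beside the members. Of 5 defining NK cell genes with a probe set, none reached 82.0 in any array, and their summed intensity was 118 to 125 in Luxoid NKT and 122 to 128 in stage 1 NKT, against 124 to 135 in CD4SP. Fcer1g is also a subunit of the mast cell IgE receptor. The 9 mast cell and basophil genes summed to 631 to 704 in Luxoid NKT and 455 to 480 in stage 1 NKT, against 491 to 564 in CD4SP, and 3 of them reached 82.0 in some array, Gata2, Hdc and Cpa3. Of these 3, Cpa3 alone was called for Luxoid against stage 1 NKT. Their median difference was 0.12 there and -0.08 for Luxoid NKT minus CD4SP. Cpa3, a mast cell protease gene, read 231, 255 and 250 in Luxoid NKT and 68.0 and 48.5 in stage 1 NKT, against 32.6 and 28.3 in CD4SP (2.09 ± 0.17 for Luxoid minus stage 1 NKT, at least 2.99-fold, adjusted p = 0.000787). Cpa3 passed the filter through Luxoid NKT alone, so the bound, and not the fitted difference, gives the size. The other chains of the IgE receptor, Fcer1a (9.33 to 16.1) and Ms4a2 (10.8 to 14.9), were near background in all arrays. The sums of the 9 genes include Cpa3, which alone read 231 to 255 in Luxoid NKT. The part of mast cells or basophils in the Fcer1g values was not tested. The 7 neutrophil genes summed to 242 to 281 in Luxoid NKT and 221 to 263 in stage 1 NKT, against 299 to 311 in CD4SP. CD8 lineage genes (Cd8a, Cd8b1 and Runx3), whose cells also carry granules, summed to 614 to 750 in Luxoid NKT and 408 to 468 in stage 1 NKT, against 940 to 955 in CD4SP. The largest part of each sum was Runx3, also listed above as a regulator. It read 386 to 475 in Luxoid NKT and 263 and 306 in stage 1 NKT, against 582 and 540 in CD4SP. Cd8a read 144, 184 and 152 in Luxoid NKT and 82.3 and 93.6 in stage 1 NKT, against 135 and 148 in CD4SP. It rose in Luxoid over stage 1 NKT (0.86 ± 0.16, adjusted p = 0.0342), a call lost without any 1 array but Luxoid array 1 (0.0659 to 0.283). The other CD8 chain, Cd8b1, read 83.4, 43.8 and 123 in Luxoid NKT and 61.9 and 67.6 in stage 1 NKT, against 223 and 268 in CD4SP. It overlapped between the NKT groups (0.24 ± 0.36, adjusted p = 0.870). The part of CD8 cells in the Gzmb, Gzmc and Tyrobp values was not tested.

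Of a list of gamma delta T cell genes 2 were tested, and both were higher in each NKT group than in CD4SP. Nkg7, Klrd1 and Fcer1g shared that direction. For Luxoid minus stage 1 NKT the median difference of the 2 gamma delta genes was -0.75. Neither was called by limma's adjusted p, and 1 of the 2 was lower at an unadjusted p under 0.05. The 3 of that list with a probe set summed to 830 to 1035 in Luxoid NKT and 1070 to 1208 in stage 1 NKT, against 210 to 270 in CD4SP. Cd163l1 read 762, 692 and 846 in Luxoid NKT and 761 and 785 in stage 1 NKT, against 172 and 115.5 in CD4SP, and rose over CD4SP in both NKT groups (2.44 ± 0.19 in Luxoid NKT, 2.45 ± 0.21 in stage 1 NKT). Sox13 rose over CD4SP by 1.06 ± 0.30 in Luxoid NKT (adjusted p = 0.0448, and 0.106 to 0.246 without Luxoid array 1 or 3 or either CD4SP array) and by 2.55 ± 0.33 in stage 1 NKT (adjusted p = 0.00158). The 5 B cell genes summed to 585 to 724 in Luxoid NKT and 818 to 894 in stage 1 NKT, against 934 to 976 in CD4SP. Among them Cd79b went the other way, at 161, 211 and 138 in Luxoid NKT and 206 and 143 in stage 1 NKT, against 66.2 and 43.0 in CD4SP (1.65 ± 0.26 in Luxoid NKT and 1.69 ± 0.28 in stage 1 NKT over CD4SP, the second call lost without stage 1 NKT array 1, 0.0568, or CD4SP array 2, 0.0503). Of the 4 tested B cell genes 1 rose and 2 fell for Luxoid NKT minus CD4SP, the falls being Ighm and Cd79a. For stage 1 NKT minus CD4SP 1 rose and 1 fell, the fall being Cd79a. The call of Ighm held in all 16 alternative settings in which it was tested. Those of Cd79a held in 9 of 16 for Luxoid NKT and 11 of 16 for stage 1 NKT. The defining B cell gene Ms4a1 was near background in all arrays (14.3 to 17.3). The part of such cells in the Nkg7, Klrd1 and Fcer1g values was not tested.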

How the data were processed

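RNA of FACS-sorted cells was amplified, biotin-labelled and read on Affymetrix mouse arrays of 1 colour, per the labels' protocols. The authors deposited linear intensities (3.08 to 20875); RMA and Affymetrix Expression Console are named in the submitters' processing notes, with no version. RMA corrects background, equalises the distributions of arrays and summarises probes, which compresses differences of dim probe sets. Depth does not apply to arrays, and their number limits the precision. No 2 arrays were identical, and nothing but the label "biological replicate" says how the pools were made, so p-values measure the spread between these samples.

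Of 45037 probe sets 34945 had 1 gene symbol in the GEO platform annotation, 932 had several and 9160 were not listed. For each of 18193 genes the probe set of highest mean log2 value was used. Genes reaching 82.0, the 50th percentile, in 2 or more arrays were tested with limma 3.58.1 in R 4.3.3 (lmFit, eBayes, a mean per group, all 7 arrays in 1 fit), with Benjamini-Hochberg over 10874 genes and a threshold of 0.05. Further probe sets of members were tested in a fit over all 45037. The fit was tested on simulated data. Alternatives changed the filter, the probe set rule, the normalization, the spread model, the arrays and the block. The members and lists were chosen with earlier results of these data known. Named are all members, the called genes of largest change in each list (up to 4 per direction and comparison), marker genes, and the 3 genes of highest correlation with each member; Hcst, Zap70, Syk, Klrc1, Klrc2, Ncr1, Klra7 and Eomes were named after their values were seen.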

Additional observations from a re-analysis of the deposited data

Results flagged for a closer look

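Data outside the comparisons held 1 signal above CD4SP. It came from a probe set that the platform annotation pairs with both Klrb1b and Klrb1c, so its signal is assigned to neither. It read 253, 167 and 180 in Luxoid NKT (geometric mean 197), above the 104 and 161 of both CD4SP arrays. Stage 1 NKT read 149 and 164 and overlapped CD4SP. Luxoid minus CD4SP did not pass in limma's fit over all probe sets (0.60 ± 0.24, adjusted p = 0.215).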

How the results depend on the processing

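Of 24 differences of the 8 tested members, 13 kept direction and side of the threshold in every alternative in which they were tested, 15 to 17 of the 17, among them those of Fcer1g and Nkg7 in all 17; of 79 called differences of related and marker genes 32 did, and none changed sign. With the filter at 307, the 75th percentile, only 3 members were tested, and 1 was called for Luxoid against stage 1 NKT, 2 for stage 1 NKT against CD4SP and 2 for Luxoid NKT against CD4SP. With the mean of its probe sets Prf1 turned to 0.35 (Luxoid minus stage 1 NKT) and 0.25 (Luxoid minus CD4SP). Leaving out 1 array moved Gzma between -0.29 (without stage 1 NKT array 2) and 0.85 for Luxoid minus stage 1 NKT, with -0.036 without Luxoid array 1, and Tyrobp between -0.065 (without stage 1 NKT array 2) and 0.84. Genes called then numbered 55 to 178 for Luxoid against stage 1 NKT (103 without Luxoid array 3, 64 and 55 without stage 1 NKT array 1 and 2, 169 with all arrays), 643 to 1846 for stage 1 NKT against CD4SP (643 and 749 without stage 1 NKT array 1 and 2, 856 and 714 without CD4SP array 1 and 2, 1621 with all) and 866 to 1726 for Luxoid NKT against CD4SP (978 and 866 without CD4SP array 1 and 2, 1831 with all). Members called numbered 2, 3 to 5 and 4 to 6 in these comparisons, with 3 for stage 1 NKT against CD4SP without stage 1 NKT array 2 or CD4SP array 2. A group left with 1 array is assumed to vary like the others. Same-numbered arrays deviated together (r = 0.33 to 0.49), but groups share only 2 numbers and no label ties a number to a batch, so the numbers were not taken as pairs. The replicate block gave 2616 genes for stage 1 NKT against CD4SP, 170 for Luxoid against stage 1 NKT and 2299 for Luxoid NKT against CD4SP; with it Gzma passed for Luxoid minus CD4SP (adjusted p = 0.0437 in limma) and Klrb1a (0.0578) and Il2rb (0.0606) did not for Luxoid minus stage 1 NKT, nor Cd226 for Luxoid NKT (0.0570) or stage 1 NKT (0.0520) minus CD4SP, nor Sox13 for Luxoid NKT minus CD4SP (0.111). Among the 24 and 79 differences above it changed no other call. The cause of these shifts was not tested. Signal near background limits Klrb1f, Klrk1, Gzma and Gzmc. It also limits comparisons of Klrd1, Gzmb, Tyrobp, Fcer1g, Nfil3 and Cpa3 with groups in which some or all arrays were near background. The same holds for Il18rap, Klrb1a, Cst7 and Tox2, among others.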
